A study of Mus musculus with 24 samples.

Results

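Type D and Type V small cell lung cancer lines of the mouse were compared after p53 had been switched back on, by the transcript level of each gene in the 6 libraries labelled Restored without cyclosporin A, of 24 libraries in the series. Of these, 3 came from the Type D lines 4711-1, 4711-18 and 4716-11 and 3 from the Type V lines 4711-11, 4716-10 and 4716-14, 1 library a line. Each line was grown from 1 lung tumor of a mouse with floxed Rb1 and Rbl2 alleles (both flox/flox), the allele Trp53 XTR/XTR, which is expressed until Cre traps it, and Rosa26 FlpO-ER, on a mixed B6J and 129S4vJae background. In every group used here adenoviral Cre under the CMV promoter, which is active in most cell types, had deleted Rb1 and Rbl2 and trapped Trp53. Treatment with 4-hydroxytamoxifen (4-OHT) lets the FlpO recombinase cut out the gene trap, which restores Trp53 (Restored), and Control cultures received the ethanol vehicle, both for 72 h. The study had named the lines by their fate after restoration: Type D cells died by necrosis within days, and Type V cells stayed viable, stopped dividing and stained for senescence-associated β-galactosidase. The paper places this lysis from about 3 days after reactivation on, close to the 72 h at which the RNA was taken. The part of dying or surviving cells in the Type D Restored levels was not tested. The comparison shows how the transcriptomes of the types differed once both had p53, and the 6 Control libraries of the same lines show how far those differences were already there. All Restored cultures also received 4-OHT, so effects of the drug and of p53 cannot be told apart in levels after restoration.

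The protein p53 is a transcription factor held low by Mdm2, itself a p53 target, and once active it raises genes that halt division, such as Cdkn1a, and genes that can kill, such as Bbc3, Pmaip1 and Bax. Which outcome follows differs between cell states. Small cell lung cancer is usually neuroendocrine, but non-neuroendocrine forms marked by Yap1 exist, and such cells may carry epithelial or mesenchymal programs.

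Levels are TPM, each transcript's share of its library scaled to a fixed total, and are given in the line order above. Trp53 was at 213, 182 and 203 TPM in Type D and 189, 214 and 253 TPM in Type V with p53 restored, against 10.9, 13.9 and 10.7 TPM and 13.6, 14.8 and 14.1 TPM in the Control libraries of the same lines. Every Restored library lay above every Control library, and the types overlapped, with a Type D minus Type V difference of -0.13 ± 0.17 log2 (SE, limma adjusted p 0.688). Rb1 transcripts (22.1, 40.6 and 39.3 TPM in Type D and 50.7, 48 and 68.8 TPM in Type V) and Rbl2 transcripts (5, 9.31 and 10.6 TPM in Type D and 15.7, 15.8 and 20.6 TPM in Type V) were still read in all 6 libraries, and a gene-level TPM does not show whether the floxed exons are in them. The 3 Type D values lay below the 3 Type V values for both genes, but neither passed the test (limma adjusted p 0.207 and 0.147). At the protein level the paper reports, by immunoblot, that its tumor-derived lines lacked RB.

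Several transcripts that mark either neuroendocrine cells or subtypes of the disease were at or near 0. Neurod1 and Pou2f3, factors that mark subtypes of the disease, reached no more than 0.0954 and 0.0553 TPM, and Chga was listed at 0 in all 6. Insm1 was higher, at 1.43, 0.105 and 3.39 TPM in Type D and 49.6, 2.21 and 9.99 TPM in Type V, with the Type V line 4711-11 highest. Yap1 was read in all lines (97.4, 120 and 97.5 TPM in Type D and 193, 561 and 115 TPM in Type V), with the highest value in the Type V line 4716-10, and the types overlapped. Of 7 endothelial markers 0 were tested, and their summed level was 0.65 to 1.25 TPM in Type D and 0.794 to 0.891 TPM in Type V. Of 10 immune markers 4 were tested and 0 called, with a summed level of 137 to 164 TPM in Type D and 92.1 to 173 TPM in Type V that came almost wholly from Cd14 and Cd68, while Ptprc, the pan-leukocyte gene, stayed at or below 0.0791 TPM. The globins Hba-a1 and Hbb-bs were listed at 0 in all 6 libraries. TPM keeps no read counts, so depth is unknown, and in bulk RNA fewer cells of a kind and less RNA per cell cannot be told apart. Between 12027 and 12651 of 25239 genes reached 1 TPM in a library, and its 10 top genes made up 4.59 to 6.23 percent of the transcripts. None of 10 housekeeping genes checked was listed at 0.

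After restoration 248 genes stood higher in Type D lines (1.76 percent of the 14104 genes tested) and 242 were lower (1.72 percent), at a limma adjusted p under 0.05 and a difference of at least 1 on the log2(TPM + 1) scale. Such genes are called below, and all differences are Type D minus Type V on that scale, which understates the difference of genes with low values. The calls came with large differences: the median was 2.45 log2 among genes higher in Type D and -2.54 log2 among genes lower, and 36 and 48 genes differed by 4 log2 or more. Many were close to off in 1 type: 66 of the 248 were under 1 TPM in all 3 Type V libraries and 103 of the 242 in all 3 Type D libraries, with 9 and 18 listed at 0 there. The median over all genes tested was -0.07 log2. In 1850 genes (13.1 percent) all 3 Type D values lay above all 3 Type V values, and in 2270 (16.1 percent) all lay below.

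The first principal component of the 6 Restored libraries held 51.6 percent of the variance and separated the types, with Type D at 53.8 to 71.5 and Type V at -80.9 to -37.1. The second held 20 percent and spread the Type V lines, from -72.8 in 4716-10 to 57.3 in 4711-11. Libraries of 1 type correlated across genes with r of 0.883 to 0.97 and libraries of different types with 0.834 to 0.887. Line names begin with 4711 or 4716, and both types have lines of each. Of the 490 called genes, 472 differed by at least 1 log2 in the same direction within both name groups. The direction could not differ, since the types did not overlap in any called gene. The genes were also chosen for their difference in the same 6 libraries.

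The number of calls hung on single lines. Leaving out 4711-1 left 14 genes called, 4716-11 136, 4716-14 211, 4711-18 290 and 4711-11 350, while leaving out 4716-10 gave 705 (limma, same rule). The types did not overlap in any of the 490 genes, so leaving out a line could not change a sign. Of these genes, chosen for their difference in the same libraries, 485 to 489 still differed by at least 1 log2. Of 82 called genes named by rule, 8 were called in all 6 of these fits (S100a14, Gcnt3, Fstl1, Cxcl12, Irx1, Gpc4, Evc2 and Evc). A further 22 were called in 5 of them, 4 in 4, 12 in 3, 12 in 2 and 19 in 1. The 5 that were called in none were Clu, Gsn, Tgfb3, Uchl1 and Notch3, so their calls needed every line. Genes called in 1 alone included Mdm2, Cdkn2b, B2m, Gapdh and Sox2. No difference of the 82 moved by more than 1.5 times.

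**Figure D1:**
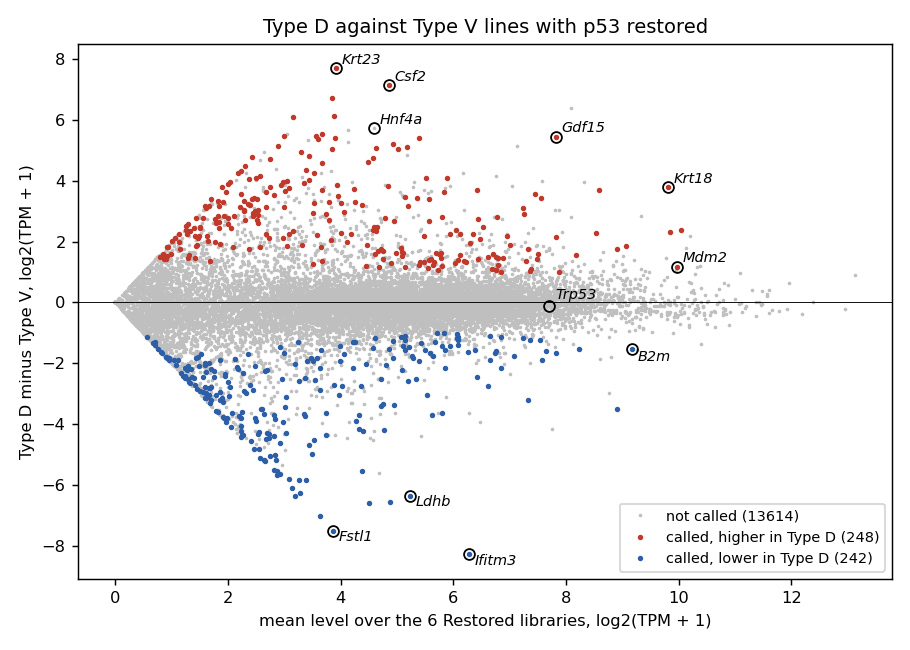
Difference between types (Type D minus Type V, vertical axis) against the mean level over the 6 Restored libraries (horizontal axis), both in log2(TPM + 1), for the 14104 genes tested. Red and blue points are the 248 genes called higher and the 242 called lower in Type D, and Trp53 lies near 0 at -0.13 log2.

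The largest difference in favor of Type D was in Krt23, a type I keratin, at 439, 66.3 and 350 TPM in Type D and 0, 0.154 and 0 TPM in Type V. Krt23 differed by 7.70 ± 0.70 log2 (SE, limma adjusted p 0.00796). Csf2, which encodes the cytokine GM-CSF, was at 398, 439 and 229 TPM in Type D and 0, 5.78 and 1.12 TPM in Type V. Csf2 differed by 7.14 ± 0.69 log2 (SE, limma adjusted p 0.00843). The 3 Type D values stood far above the 3 Type V values in both. S100a14, a calcium-binding protein of epithelia, was at 160, 131 and 153 TPM in Type D and 0.114, 1.18 and 0.135 TPM in Type V. S100a14 differed by 6.73 ± 0.33 log2 (SE, limma adjusted p 0.00149). Cldn2, a pore-forming claudin of tight junctions, was at 156, 49.6 and 231 TPM in Type D and 0.136, 1.86 and 0.696 TPM in Type V, a difference of 6.12 ± 0.63 log2 (SE, limma adjusted p 0.00986), and 4711-18 was the lowest of the Type D lines for both Krt23 and Cldn2. Gcnt3, a mucin-glycan branching enzyme, was at 120, 62.1 and 51.7 TPM in Type D and 0, 0.166 and 0.0763 TPM in Type V. Gcnt3 differed by 6.10 ± 0.37 log2 (SE, limma adjusted p 0.0029). Fermt1, the integrin activator kindlin-1, was at 79.9, 75.8 and 102 TPM in Type D and 0.0529, 1.32 and 1.69 TPM in Type V. Fermt1 differed by 5.52 ± 0.41 log2 (SE, limma adjusted p 0.00507). Of these 6 genes, Csf2 alone exceeded 1.86 TPM in a Type V line. Myrf, a membrane-bound transcription factor, differed by 5.48 ± 0.54 log2 (SE, limma adjusted p 0.00887), Dhh, a Hedgehog ligand, by 5.46 ± 0.48 log2 (SE, limma adjusted p 0.00793), and Clca3b, of a family of chloride channel regulators, by 5.42 ± 0.76 log2 (SE, limma adjusted p 0.0211).

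Among abundant genes, Krt18, a keratin of simple epithelia, was at 4707, 2466 and 3245 TPM in Type D and 98.8, 367 and 391 TPM in Type V. Krt18 differed by 3.79 ± 0.58 log2 (SE, limma adjusted p 0.0261). Clu, a secreted chaperone, was at 1606, 3488 and 2444 TPM in Type D and 252, 635 and 617 TPM in Type V. Clu differed by 2.37 ± 0.46 log2 (SE, limma adjusted p 0.0497). Emp1, an epithelial membrane protein, was at 2712, 1696 and 1847 TPM in Type D and 247, 576 and 489 TPM in Type V. Emp1 differed by 2.31 ± 0.38 log2 (SE, limma adjusted p 0.0321). Unlike the genes above, these were plainly expressed in both types, and the lowest Type V value of each was in 4711-11.

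The largest difference in favor of Type V was in Ifitm3, an interferon-induced protein that hinders virus entry, at 3.59, 0 and 17.6 TPM in Type D and 1103, 1803 and 1327 TPM in Type V. Ifitm3 differed by -8.29 ± 0.98 log2 (SE, limma adjusted p 0.0134). Fstl1, a secreted follistatin-like glycoprotein, was at 0, 0.0443 and 0.186 TPM in Type D and 236, 135 and 234 TPM in Type V. Fstl1 differed by -7.52 ± 0.30 log2 (SE, limma adjusted p 0.00149). Cxcl12, the chemokine that binds Cxcr4, was at 0, 0.0476 and 0.2 TPM in Type D and 244, 87.2 and 129 TPM in Type V. Cxcl12 differed by -7.03 ± 0.40 log2 (SE, limma adjusted p 0.00233). All 3 were strong in every Type V line, and Fstl1 and Cxcl12 did not exceed 0.2 TPM in any Type D line. Irx1, an Iroquois homeobox factor, was listed at 0 in the 3 Type D libraries and read at 46.8, 95 and 124 TPM in Type V, and it was called (limma adjusted p 0.0029). Ldhb, the B subunit of lactate dehydrogenase, was at 1.28, 6.27 and 3.27 TPM in Type D and 240, 693 and 232 TPM in Type V. Ldhb differed by -6.36 ± 0.58 log2 (SE, limma adjusted p 0.00796). Gpc4, a glypican, differed by -6.26 ± 0.43 log2 (SE, limma adjusted p 0.00384), Lox, which crosslinks collagen, by -6.10 ± 0.78 log2 (SE, limma adjusted p 0.0164), and Casp12, a caspase of the endoplasmic reticulum, by -5.86 ± 0.80 log2 (SE, limma adjusted p 0.0192). The Type V lines lay far apart in Aebp1, a matrix protein, at 0.242, 1.24 and 3.36 TPM in Type D and 28.8, 612 and 590 TPM in Type V, and in Tnfrsf11b, the decoy receptor osteoprotegerin, at 2.59, 0.793 and 3.33 TPM in Type D and 1571, 123 and 119 TPM in Type V. Aebp1 was low in 4711-11 and Tnfrsf11b was high in it, and both were called, at -6.59 log2 and -6.56 log2 (limma adjusted p 0.0434 and 0.0281).

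**Figure D2:**
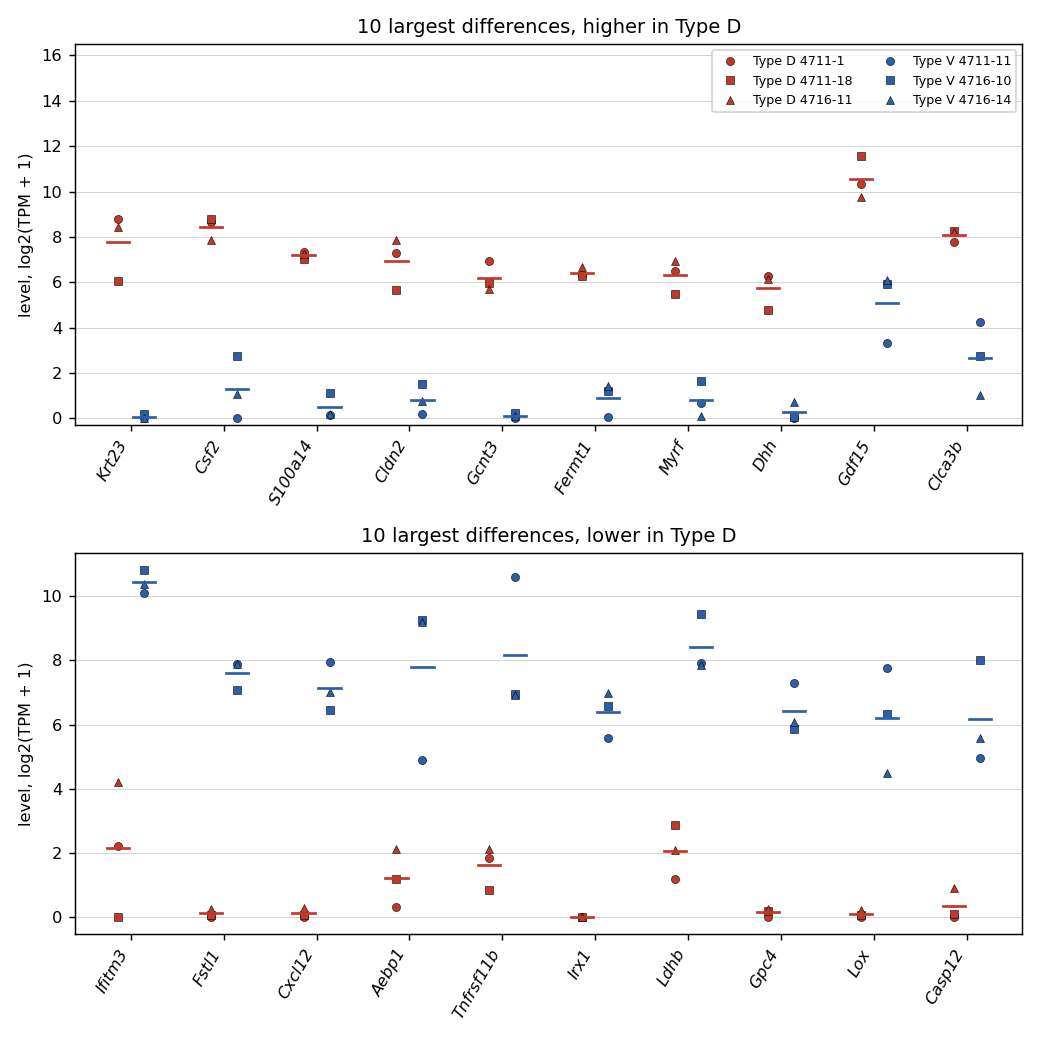
Level in log2(TPM + 1) of the 10 genes with the largest called differences in each direction, in each of the 6 Restored libraries. Each point is 1 line (red Type D, blue Type V, shapes give the line) and bars are the means of 3 lines; the groups do not overlap for any gene shown, and Irx1 is at 0 in all Type D lines.

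The promoters of the first 3 of these genes in each direction that have an entry in the RefSeq promoter table are shown because their levels separate the types most. Each is the 250 bases before the start site on GRCm38.p6, in the direction of transcription. The build behind the TPM values is uncertain, and no coordinates come from them. Capitals mark any match, on either strand, to CAGGTG (an E-box bound by Snai and Zeb factors), GGAATG (a TEAD site), CAAAGTCCA (an HNF4 site) or TGANTCA (an AP-1 site).
Krt23, chr11:99493121-99493370, minus strand: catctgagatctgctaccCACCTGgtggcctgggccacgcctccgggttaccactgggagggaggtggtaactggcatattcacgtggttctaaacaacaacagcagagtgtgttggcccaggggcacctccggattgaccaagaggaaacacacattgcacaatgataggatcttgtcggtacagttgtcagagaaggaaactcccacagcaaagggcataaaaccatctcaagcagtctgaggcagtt
Csf2, chr11:54249900-54250149, minus strand: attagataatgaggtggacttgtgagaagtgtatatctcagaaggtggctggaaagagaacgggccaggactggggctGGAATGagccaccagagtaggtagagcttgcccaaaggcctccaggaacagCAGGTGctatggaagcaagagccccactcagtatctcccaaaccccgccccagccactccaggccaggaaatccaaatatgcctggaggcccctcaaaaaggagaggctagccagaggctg
Cldn2, chrX:139800558-139800807, plus strand: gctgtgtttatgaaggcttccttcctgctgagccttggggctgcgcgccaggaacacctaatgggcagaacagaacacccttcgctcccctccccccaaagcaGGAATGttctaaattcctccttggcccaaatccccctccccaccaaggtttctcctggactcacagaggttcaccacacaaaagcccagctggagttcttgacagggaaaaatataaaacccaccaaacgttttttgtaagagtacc
Ifitm3, chr7:141010745-141010994, minus strand: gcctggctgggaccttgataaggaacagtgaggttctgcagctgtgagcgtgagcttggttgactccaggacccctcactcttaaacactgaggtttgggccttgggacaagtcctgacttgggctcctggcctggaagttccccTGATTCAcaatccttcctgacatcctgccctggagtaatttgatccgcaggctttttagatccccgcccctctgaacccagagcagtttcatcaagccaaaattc
Fstl1, chr16:37776805-37777054, plus strand: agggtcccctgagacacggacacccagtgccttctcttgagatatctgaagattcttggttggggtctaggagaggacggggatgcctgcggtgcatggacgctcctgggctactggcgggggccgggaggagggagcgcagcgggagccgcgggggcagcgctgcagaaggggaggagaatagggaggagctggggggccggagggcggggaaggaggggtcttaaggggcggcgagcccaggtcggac
Cxcl12, chr6:117168285-117168534, plus strand: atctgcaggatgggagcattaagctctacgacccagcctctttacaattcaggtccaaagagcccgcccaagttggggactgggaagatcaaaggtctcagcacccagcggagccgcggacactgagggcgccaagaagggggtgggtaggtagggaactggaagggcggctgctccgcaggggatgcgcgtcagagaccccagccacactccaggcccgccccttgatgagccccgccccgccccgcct
Of the genes higher in Type D, Krt23 held 1 CAGGTG match, Csf2 held 1 CAGGTG and 1 GGAATG match and Cldn2 held 1 GGAATG match. Of those lower in Type D, Ifitm3 held 1 TGANTCA match, and the windows of Fstl1 and Cxcl12 held none of these letters. Among the 32851 promoter windows of this length that were searched, 17.2 percent held CAGGTG, 12.6 percent GGAATG, 6.75 percent TGANTCA and 0.384 percent CAAAGTCCA.

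Of 40 tested p53 targets for arrest and feedback, 1 was called higher in Type D and 0 lower, with a median difference of -0.07 log2, beside -0.07 log2 over all genes, of which 1.76 percent were called higher and 1.72 percent lower. Of 23 tested targets linked to death, 1 was called higher and 0 lower, with a median of -0.06 log2, so both lists were near the share of all genes. The call in the first list was Mdm2, the ubiquitin ligase that degrades p53, at 1584, 1570 and 1384 TPM in Type D and 723, 762 and 554 TPM in Type V. Mdm2 differed by 1.16 ± 0.22 log2 (SE, limma adjusted p 0.0437). All Type D values lay above all Type V values. The call was lost with median-ratio scaling, with no filter on low values, with the name prefix as covariate and without any one line except 4716-10, while the difference stayed between 1.02 and 1.25 log2 in all 16 settings. In Control Mdm2 had been at 73.4, 71.4 and 71.6 TPM in Type D and 69.8, 63.2 and 61.9 TPM in Type V, a difference of 0.15 ± 0.11 log2 (SE, limma adjusted p 0.438), and the difference in its response was 1.01 ± 0.15 log2 (SE, limma adjusted p 0.0907). The call in the second list was Gdf15, a secreted stress cytokine of the TGF-beta family, at 1303, 3023 and 859 TPM in Type D and 8.94, 58.9 and 66.7 TPM in Type V. Gdf15 differed by 5.45 ± 0.83 log2 (SE, limma adjusted p 0.0261). Its call held without 4711-11 or 4716-10 and was lost without any other line. It differed by 4.35 ± 0.64 log2 (SE, limma adjusted p 0.0242) in Control too.

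Cdkn1a, the inhibitor p21 that stops the cell cycle, was at 1871, 2540 and 1563 TPM in Type D and 1734, 1068 and 1605 TPM in Type V, and its difference of 0.44 ± 0.32 log2 (SE, limma adjusted p 0.456) did not pass the test. Bbc3, which encodes the death protein Puma, was at 56.6, 69.9 and 47.2 TPM in Type D and 25, 40.7 and 43.6 TPM in Type V, a difference of 0.68 ± 0.27 log2 (SE, limma adjusted p 0.212), and Pmaip1, which encodes Noxa, was at 92, 186 and 137 TPM in Type D and 58.8, 59.9 and 107 TPM in Type V. Pmaip1 differed by 0.87 ± 0.34 log2 (SE, limma adjusted p 0.205). Bbc3 was separated between the types and Pmaip1 overlapped between them, and neither was called. Bax, the pore-forming effector, was at 786, 805 and 728 TPM in Type D and 981, 764 and 789 TPM in Type V. Bax differed by -0.12 ± 0.19 log2 (SE, limma adjusted p 0.748). Apaf1, the core of the apoptosome, was at 71.8, 67.7 and 72 TPM in Type D and 59.1, 50.5 and 42.9 TPM in Type V, with a difference of 0.48 ± 0.17 log2 (SE, limma adjusted p 0.175). Perp, a desmosomal p53 target, was at 737, 662 and 582 TPM in Type D and 637, 220 and 436 TPM in Type V, where 4716-10 was lowest, a difference of 0.74 ± 0.39 log2 (SE, limma adjusted p 0.317). Cdkn2a, whose Arf product shields p53 from Mdm2, was at 679, 521 and 722 TPM in Type D and 432, 255 and 341 TPM in Type V, separated but not called at 0.92 ± 0.25 log2 (SE, limma adjusted p 0.106).

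**Figure D3:**
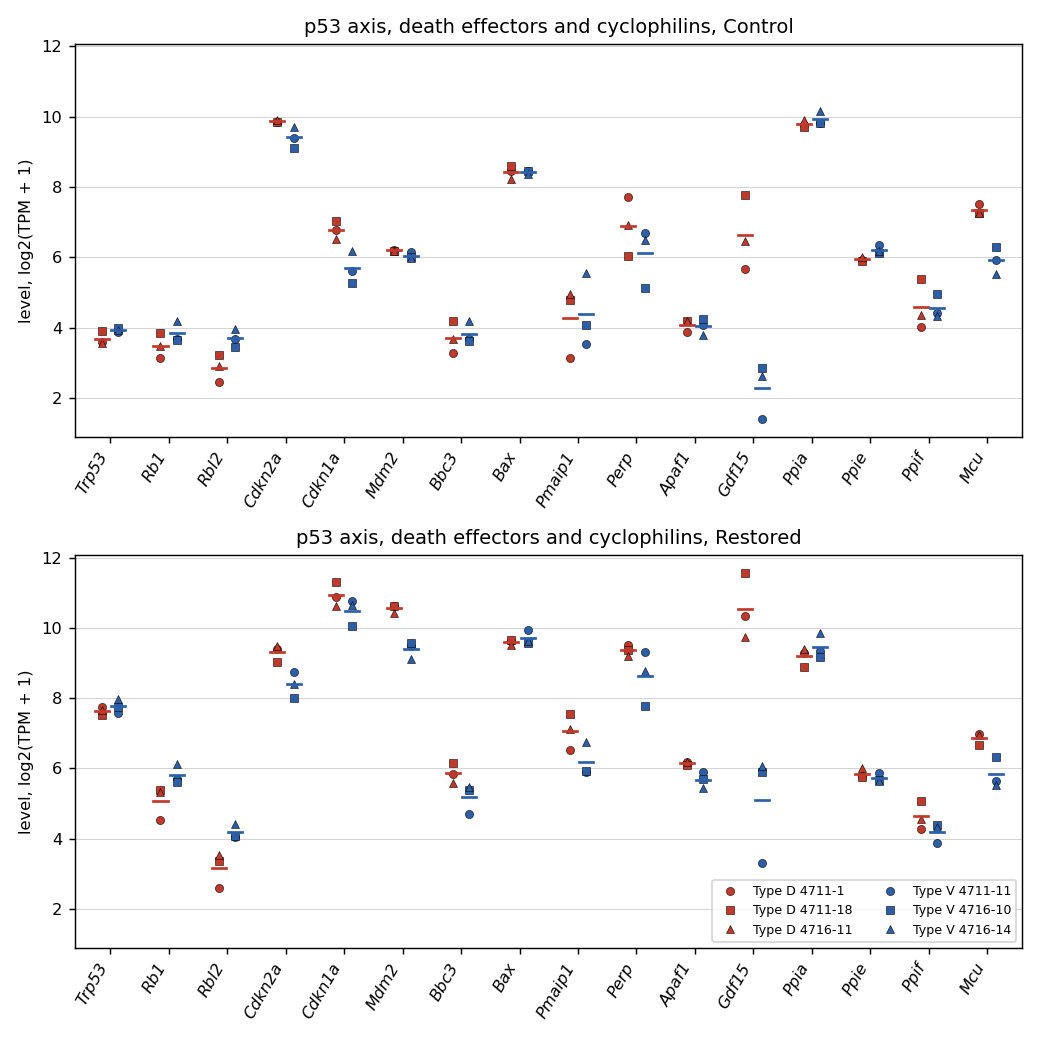
Level in log2(TPM + 1) of Trp53, Rb family genes, p53 targets, cyclophilins and Mcu in Control (top) and Restored (bottom) libraries. Each point is 1 line (red Type D, blue Type V), bars are means of 3 lines; in Restored the groups are apart for Mdm2 and Gdf15, which were called, and overlap for Trp53, Cdkn1a and Bax.

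Lists of other death routes are too short to set their calls apart from the 1.76 and 1.72 percent of all genes. Of 13 tested members of the Bcl2 family 0 were called, with a median of -0.09 log2, and of 17 necroptosis and pyroptosis genes 0 were called, with a median of -0.03 log2 that became 0.10 with a pseudocount of 0.1 and 0.04 with quantile normalization. Of 16 ferroptosis genes, 1 was called higher in Type D, with a median of 0.64 log2 over the list. It was Tfrc, the transferrin receptor that brings iron into the cell, at 160, 163 and 182 TPM in Type D and 71.3, 73.4 and 69 TPM in Type V. Tfrc differed by 1.23 ± 0.13 log2 (SE, limma adjusted p 0.011). The 3 lines of a type lay close together. Of 16 genes of the cyclophilin family tested, prolyl isomerases and related proteins of which some bind cyclosporin A, 0 were called and the median was -0.01 log2 (0.04 with median-ratio scaling). Ppia, which encodes cyclophilin A, was at 624, 474 and 674 TPM in Type D and 649, 576 and 928 TPM in Type V, Ppie, cyclophilin E, at 54.3, 52.9 and 63.6 TPM in Type D and 57.1, 50.1 and 49.4 TPM in Type V, and Ppif, the mitochondrial cyclophilin D, at 18.3, 32.9 and 22.6 TPM in Type D and 13.7, 19.9 and 19.2 TPM in Type V. The types overlapped for all 3, with differences of -0.27 log2, 0.12 log2 and 0.44 log2 (limma adjusted p 0.573, 0.685 and 0.418). Of 15 genes of the mitochondrial permeability transition 0 were called, with a median of 0.29 log2. Mcu, the mitochondrial calcium uniporter, was at 126, 99.8 and 124 TPM in Type D and 48.8, 79.2 and 45.2 TPM in Type V, separated between the types at 1.04 ± 0.25 log2 (SE, limma adjusted p 0.0788). It was called in Control, at 1.42 ± 0.22 log2 (SE, limma adjusted p 0.0275).

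Of 39 cell cycle genes 0 were called, a count near the share of all genes (1.76 percent higher and 1.72 percent lower), 30 had a difference below 0, and the median was -0.67 log2, against -0.07 log2 in Control. In 16 of the 39 all Type D values lay below all Type V values, beside 16.1 percent of all genes tested. Kif11, a mitotic kinesin, and Ccnb1, cyclin B1, were chosen after their values were seen as the pair with the largest differences toward Type V. Kif11 was at 19.7, 2.31 and 18.3 TPM in Type D and 27.8, 27 and 25.6 TPM in Type V and Ccnb1 at 14.1, 5.52 and 19.3 TPM in Type D and 28.9, 31.4 and 28.9 TPM in Type V, and 4711-18 was the lowest line for both (limma adjusted p 0.317 and 0.16). The mean level of the list lay between 4.37 and 5.45 log2 in Type D and between 5.35 and 5.68 log2 in Type V.

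Beside 1.76 percent of all genes called higher, 1 of 11 senescence genes tested was called higher in Type D. It was Cdkn2b, which encodes the inhibitor p15, at 338, 266 and 283 TPM in Type D and 81.9, 98.9 and 161 TPM in Type V, a difference of 1.42 ± 0.27 log2 (SE, limma adjusted p 0.0458), while in Control it was at 196, 145 and 184 TPM in Type D and 85.5, 134 and 255 TPM in Type V. In Control the types overlapped, and the difference in response of Cdkn2b was 1.14 ± 0.18 log2 (SE, limma adjusted p 0.102), not called. The median difference of 40 secreted factors known from senescent cells was 0.04 log2. Of these, 2 were called higher in Type D and 4 lower, beside 1.76 and 1.72 percent of all genes. Those higher were Csf2, above, and Areg, a ligand of the EGF receptor, at 1650, 1625 and 986 TPM in Type D and 50.8, 168 and 140 TPM in Type V. Areg differed by 3.69 ± 0.48 log2 (SE, limma adjusted p 0.017). Those lower were Cxcl12, above, Timp1, Mmp14 and Tgfb3. Timp1, an inhibitor of metalloproteases, was at 54, 55.9 and 46.2 TPM in Type D and 304, 751 and 512 TPM in Type V, a difference of -3.21 ± 0.33 log2 (SE, limma adjusted p 0.00936), and Mmp14, a membrane-bound metalloprotease, was at 25, 36.2 and 55.4 TPM in Type D and 322, 226 and 226 TPM in Type V. Mmp14 differed by -2.75 ± 0.31 log2 (SE, limma adjusted p 0.0126). Tgfb3, a TGF-beta ligand, was at 3.34, 3.68 and 8.44 TPM in Type D and 66.9, 36.4 and 20 TPM in Type V. Tgfb3 differed by -2.71 ± 0.52 log2 (SE, limma adjusted p 0.0466). The called secreted factors thus differed in both directions.

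All calls among epithelial and gut genes were higher in Type D. Over all genes 1.76 percent were called higher, 1.72 percent lower, and 13.1 percent were separated with Type D above. Of 36 epithelial genes tested, 7 were called higher and 0 lower, the median was 1.65 log2, and 19 were separated with Type D above. Besides Cldn2 and Krt18 these included Cldn3, a claudin listed at 0 in the 3 Type V libraries and at 10.2, 27.9 and 7.06 TPM in Type D (limma adjusted p 0.0172). Lsr, a protein of tricellular junctions, was at 375, 411 and 186 TPM in Type D and 36.4, 41.6 and 7.49 TPM in Type V. Lsr differed by 3.69 ± 0.66 log2 (SE, limma adjusted p 0.0407). The remaining calls were Dsp (desmoplakin), Ocln (occludin) and Spint2 (a protease inhibitor), at 3.21 log2, 2.76 log2 and 2.16 log2 (limma adjusted p 0.0408, 0.0408 and 0.018), each named to complete the list after its values were seen. Cdh1, which encodes E-cadherin, was not called, at 629, 281 and 342 TPM in Type D and 391, 206 and 50.3 TPM in Type V, with 4711-11 inside the range of Type D (limma adjusted p 0.358). Epcam was near off in all lines, at 0.485, 1.32 and 0.435 TPM in Type D and 0.27, 0.812 and 0.24 TPM in Type V.

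Of 38 gut and foregut genes tested, 9 were called higher in Type D and 0 lower, beside 1.76 and 1.72 percent of all genes. The median of the list was 1.69 log2. In 23 of the 38 all Type D values lay above all Type V values, beside 13.1 percent of all genes. In Control the median was 2.55 log2, and 16 genes were called higher and 0 lower, beside 2.18 and 2.3 percent of all genes. With p53 restored Cdh17, the intestinal cadherin, was at 95.1, 38.9 and 41.4 TPM in Type D and 1.45, 1.04 and 0.143 TPM in Type V. Cdh17 differed by 4.93 ± 0.47 log2 (SE, limma adjusted p 0.00843). Lgals2, a galectin, was at 240, 34.1 and 164 TPM in Type D and 2.83, 6.47 and 2.23 TPM in Type V, a difference of 4.63 ± 0.75 log2 (SE, limma adjusted p 0.0311), against 1816, 1051 and 1048 TPM in Type D in Control. Hnf4a, a nuclear receptor that drives gut and liver genes, was at 214, 169 and 145 TPM in Type D and 0.174, 23.1 and 0.275 TPM in Type V. Its difference of 5.72 ± 1.15 log2 (SE, limma adjusted p 0.0528) was large but did not pass the threshold, and the Type V line 4716-10 lay well above the other two. Hnf4a was called in Control, at 5.97 ± 1.15 log2 (SE, limma adjusted p 0.0454). Of 8 lung lineage genes tested, 1 was called, Sox2, a stem cell factor of the airway, which was lower in Type D, at 3.76, 1.03 and 0 TPM in Type D and 64.6, 19.3 and 124 TPM in Type V. Sox2 differed by -4.69 ± 0.82 log2 (SE, limma adjusted p 0.0377).

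All calls among matrix genes and factors of the epithelial-to-mesenchymal transition (EMT) were lower in Type D. Of 45 mesenchymal and matrix genes tested, 0 were called higher in Type D and 11 lower, beside 1.76 and 1.72 percent of all genes. The median of the list was -2.16 log2. In Control the median was -2.7 log2, and 0 genes were called higher and 15 lower, beside 2.18 and 2.3 percent of all genes. With p53 restored Dcn, the proteoglycan decorin, was at 0, 0 and 0.106 TPM in Type D and 71.9, 36.3 and 19.5 TPM in Type V. Dcn differed by -5.21 ± 0.48 log2 (SE, limma adjusted p 0.00802). Fbln5, a protein of elastic fibers, was at 0, 0 and 0.0363 TPM in Type D and 94.2, 17 and 23.9 TPM in Type V. Fbln5 differed by -5.11 ± 0.63 log2 (SE, limma adjusted p 0.0154). Both were absent or nearly so in Type D. Among abundant genes of the comparison, Pcolce, which aids procollagen cleavage, was at 143, 112 and 172 TPM in Type D and 1319, 3127 and 1035 TPM in Type V, a difference of -3.52 ± 0.43 log2 (SE, limma adjusted p 0.0152), and Gsn, the actin-severing protein gelsolin, was at 198, 126 and 222 TPM in Type D and 467, 458 and 623 TPM in Type V. Gsn differed by -1.52 ± 0.26 log2 (SE, limma adjusted p 0.0355). Vim, the intermediate filament taken as the mesenchymal marker, was at 4491, 2365 and 3093 TPM in Type D and 2924, 4250 and 4632 TPM in Type V and did not separate the types (limma adjusted p 0.721). Of 10 EMT factors 3 were called, all lower in Type D, with a median of -1.77 log2. Snai2, a repressor of E-cadherin, was at 19.9, 11.5 and 17.6 TPM in Type D and 190, 59.5 and 79.3 TPM in Type V. Snai2 differed by -2.53 ± 0.46 log2 (SE, limma adjusted p 0.0407). Foxc1, a forkhead factor, was at 1.41, 2.88 and 1.9 TPM in Type D and 12, 12.6 and 14.3 TPM in Type V, a difference of -2.21 ± 0.29 log2 (SE, limma adjusted p 0.0173), and Tcf4, an E protein, was at 0, 4.88 and 0.0551 TPM in Type D and 61.5, 18.1 and 38.9 TPM in Type V, a difference of -4.30 ± 0.80 log2 (SE, limma adjusted p 0.0442), with the Type D line 4711-18 above the other Type D lines.

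Some of these genes also mark fibroblasts. Of 9 fibroblast markers 6 were tested and 2 called, both lower in Type D, Dcn and Col1a2, a chain of collagen I, at 0, 0 and 0.0431 TPM in Type D and 6.36, 11.6 and 6.88 TPM in Type V. Over all genes 1.72 percent were called lower. The summed level of the 9 markers was 0.48 to 1.93 TPM in Type D and 89.1 to 197 TPM in Type V. Col1a1, the other chain of collagen I and chosen after its values were seen, made up most of the sum in 4711-11 and 4716-10, at 0.395, 0.433 and 1.55 TPM in Type D and 94.7, 136 and 0.698 TPM in Type V. Pdgfra, a defining fibroblast receptor, did not exceed 0.333 TPM in any of the 6 libraries, and Lum and Thy1 were listed at 0 in all 6. The part of other cells in the Type V levels was not tested.

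Among 12 Hedgehog genes tested the median was -1.20 log2. Of them, 1 was called higher in Type D and 2 lower, beside 1.76 and 1.72 percent of all genes. The ligand Dhh was the one higher. Evc2 and Evc, a protein pair of the primary cilium that passes on the signal, were at 0, 0 and 0.0545 TPM in Type D and 54.4, 60.1 and 40.6 TPM in Type V and at 0, 0 and 0.104 TPM in Type D and 47.5, 58.4 and 36.2 TPM in Type V. Their differences were -5.68 ± 0.27 log2 (SE, limma adjusted p 0.00149) and -5.52 ± 0.29 log2 (SE, limma adjusted p 0.0017). Among 27 receptor tyrosine kinases 0 were called higher and 2 lower, the fibroblast growth factor receptors Fgfr1 and Fgfr2, with a median of -0.56 log2 over the list. Fgfr1 was at 0.26, 0.157 and 0.175 TPM in Type D and 23.4, 84.2 and 39.6 TPM in Type V, a difference of -5.20 ± 0.48 log2 (SE, limma adjusted p 0.00796), and Fgfr2 was at 0, 0.0288 and 0.121 TPM in Type D and 46.1, 18.9 and 9.53 TPM in Type V. Fgfr2 differed by -4.35 ± 0.55 log2 (SE, limma adjusted p 0.0164).

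Of 33 Wnt genes, 0 were called higher and 3 lower, with a median of -0.62 log2: the ligand Wnt4 and the receptors Fzd8 and Fzd1. Wnt4 was at 0.434, 0.0834 and 1.05 TPM in Type D and 14.5, 105 and 14.7 TPM in Type V, where 4716-10 was highest, a difference of -4.33 ± 0.79 log2 (SE, limma adjusted p 0.0419). Fzd8 differed by -3.10 ± 0.49 log2 (SE, limma adjusted p 0.0288) and Fzd1 by -2.52 ± 0.35 log2 (SE, limma adjusted p 0.0204). Of 13 Notch genes, 0 were called higher and 2 lower, with a median of -0.06 log2. Notch3, a receptor, was at 3.31, 9.49 and 18.7 TPM in Type D and 75.7, 76.6 and 167 TPM in Type V. Notch3 differed by -3.38 ± 0.60 log2 (SE, limma adjusted p 0.0396). Lfng, which glycosylates Notch receptors, was at 6.84, 6.72 and 10.2 TPM in Type D and 40, 52.6 and 27.2 TPM in Type V. Lfng differed by -2.17 ± 0.31 log2 (SE, limma adjusted p 0.0232). Of 18 Hippo genes 1 was called, Vgll3, a cofactor of TEAD proteins, lower in Type D, at 0, 0.0213 and 0 TPM in Type D and 47.9, 3.95 and 19.7 TPM in Type V, a difference of -4.09 ± 0.80 log2 (SE, limma adjusted p 0.0491), and the median was -0.23 log2. Over all genes 1.76 percent were called higher and 1.72 percent lower, and a list this short does not set 1 call apart from that.

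Of 31 TGF-beta and BMP genes, 2 were called higher in Type D and 3 lower, beside 1.76 and 1.72 percent of all genes. The median of the list was -0.18 log2. Besides Gdf15, Bmp6, a bone morphogenetic protein, was higher, at 2.88, 3.84 and 2.54 TPM in Type D and 0.185, 0.716 and 0.604 TPM in Type V. Bmp6 differed by 1.45 ± 0.28 log2 (SE, limma adjusted p 0.0495). Besides Tgfb3, the co-receptor Tgfbr3 was lower, at 0.0546, 0 and 0.257 TPM in Type D and 20.2, 55.5 and 24.6 TPM in Type V, a difference of -4.83 ± 0.42 log2 (SE, limma adjusted p 0.00793), and so was Ltbp1, which anchors latent TGF-beta in the matrix, at 94.7, 98.7 and 158 TPM in Type D and 469, 246 and 375 TPM in Type V. Ltbp1 differed by -1.61 ± 0.31 log2 (SE, limma adjusted p 0.0471). Of 25 integrins and laminins, 3 were called higher and 1 lower, with a median of 0.03 log2. Itga2, a collagen-binding integrin, was at 219, 225 and 195 TPM in Type D and 0.783, 7.13 and 15.3 TPM in Type V. Itga2 differed by 5.11 ± 0.76 log2 (SE, limma adjusted p 0.0247). The β subunits split, with Itgb3 higher in Type D by 2.26 ± 0.44 log2 (SE, limma adjusted p 0.0479) and Itgb5 lower, at -1.90 ± 0.34 log2 (SE, limma adjusted p 0.0404).

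Calls among interferon and antigen presentation genes were all lower in Type D. Over all genes 1.76 percent were called higher and 1.72 percent lower. Of 28 interferon response genes tested, 0 were called higher and 6 lower, with a median of -1.21 log2, and 27 had a difference below 0. After Ifitm3 the largest were Gbp2, a guanylate-binding protein, at 0.136, 1.3 and 2.01 TPM in Type D and 10.4, 12.9 and 19.3 TPM in Type V, Cgas, the sensor of cytosolic DNA, at 1.82, 0.291 and 0.357 TPM in Type D and 10.2, 5.12 and 8.67 TPM in Type V, and Rtp4, an interferon-induced chaperone, at 0.422, 0.304 and 0.426 TPM in Type D and 4.15, 7.12 and 6.37 TPM in Type V. They differed by -2.89 ± 0.45 log2 (SE, limma adjusted p 0.0281), -2.35 ± 0.43 log2 (SE, limma adjusted p 0.0408) and -2.29 ± 0.28 log2 (SE, limma adjusted p 0.0158). All were low in absolute level. Of 13 antigen presentation genes, 0 were called higher and 2 lower, with a median of -1.15 log2. In 8 of the 13 all Type D values lay below all Type V values, beside 16.1 percent of all genes. H2-D1 went the other way, with all Type D values above all Type V values, but was not called. B2m, the light chain of MHC class I, was at 346, 284 and 389 TPM in Type D and 843, 763 and 1466 TPM in Type V, a difference of -1.54 ± 0.29 log2 (SE, limma adjusted p 0.0466), and Tapbp, the peptide-loading chaperone tapasin, was at 43.5, 71.2 and 42.9 TPM in Type D and 199, 153 and 237 TPM in Type V. Tapbp differed by -1.90 ± 0.26 log2 (SE, limma adjusted p 0.0206). The leukocyte gene Ptprc was near 0 in all lines, as given above.

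Of 21 glycolysis genes 1 was called higher in Type D and 0 lower, with a median of 1.21 log2, and 13 were separated with Type D above. Over all genes 1.76 percent were called higher, 1.72 percent lower, and 13.1 percent were separated with Type D above. The called gene was Gapdh, at 129, 93.2 and 108 TPM in Type D and 38.1, 52 and 33.6 TPM in Type V. Gapdh differed by 1.40 ± 0.22 log2 (SE, limma adjusted p 0.0281). Gapdh, like Ppia, the keratins and the Ifitm genes, has close gene or pseudogene copies, and how their shared reads were assigned is not given in the sources used here, so these levels are uncertain. Of 19 endoplasmic reticulum and Atf4 stress genes 0 were called, with a median of 0.53 log2, and of 7 drug efflux transporters 0 were called, with a median of 1.00 log2. Of 12 neuroendocrine and subtype genes tested, 1 was called, Uchl1, a deubiquitinase of neurons and neuroendocrine cells, lower in Type D, at 0.291, 0.42 and 1.18 TPM in Type D and 6.58, 5.85 and 3.89 TPM in Type V. Uchl1 differed by -2.00 ± 0.33 log2 (SE, limma adjusted p 0.033).

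**Figure D4:**
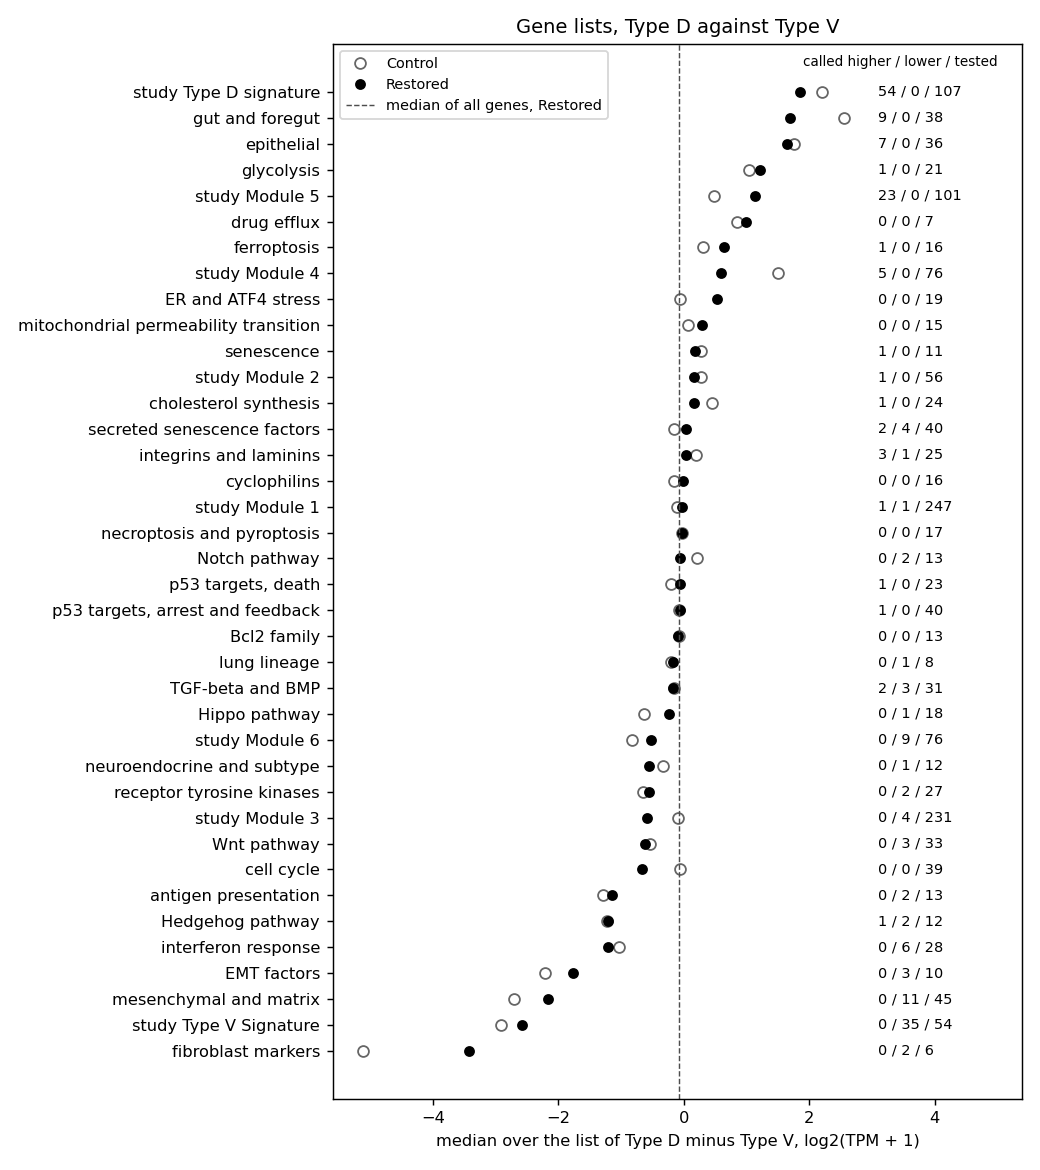
Median Type D minus Type V difference, log2(TPM + 1), over the tested genes of each list, in Restored (filled) and Control (open) libraries, with the median of all genes in Restored (-0.07 log2) as a dashed line. Numbers at the right are genes called higher, called lower and tested in Restored; the Type D signature is highest at 1.85 log2 and fibroblast markers lowest at -3.43 log2.

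The lists the study itself drew from these lines are not independent of the comparison, since its signatures rest on the Control libraries and its Modules on Control and Restored libraries. Of 107 tested genes of its Type D signature 54 were called higher with p53 restored and 0 lower, and of 54 of its Type V Signature 35 were called lower and 0 higher. The Modules are clusters of genes that answered to restoration in either type, and Module 1 had 1 of 247 genes called in each direction and a median of -0.02 log2, which became 0.02 with median-ratio scaling. The one lower in Type D was Svop, a transporter-like protein of synaptic vesicles, at 18.5, 18.9 and 22.8 TPM in Type D and 77, 43.7 and 103 TPM in Type V after restoration and no more than 0.107 TPM in any Control library, a difference of -1.77 ± 0.33 log2 (SE, limma adjusted p 0.0428). The difference in response of Svop was -1.785 ± 0.33 log2 (SE, limma adjusted p 0.12), not called. Module 5 had 23 of 101 genes called higher in Type D and 0 lower, with a median of 1.14 log2. Its largest differences after Csf2 and Gdf15 included Prss22, a tryptase, at 112, 127 and 128 TPM in Type D and 3.16, 6.86 and 1.99 TPM in Type V, a difference of 4.74 ± 0.37 log2 (SE, limma adjusted p 0.00584), and in Control Prss22 was at 18.3, 11.3 and 45.6 TPM in Type D and 0.482, 4.17 and 17.3 TPM in Type V. The difference in response of Prss22 was 2.64 ± 1.03 log2 (SE, limma adjusted p 0.296), not called. Module 4 had 5 of 76 called higher and 0 lower, and Module 6 had 9 of 76 called lower and 0 higher. Pls1, a plastin of the brush border in Module 4, was at 56.1, 40.6 and 51.8 TPM in Type D and 0.151, 2.2 and 3.92 TPM in Type V. Pls1 differed by 4.25 ± 0.55 log2 (SE, limma adjusted p 0.0165). In Module 6, Pard6g, a polarity protein, was at 2, 8.42 and 5.11 TPM in Type D and 98.5, 53.3 and 68.1 TPM in Type V. Pard6g differed by -3.69 ± 0.47 log2 (SE, limma adjusted p 0.0164). In Module 3, 4 of 231 genes were called lower, near the 1.72 percent of all genes, and 0 higher, beside 1.76 percent.

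Of the 490 genes called in Restored, 303 were also called before restoration, in the same lines. In the 6 Control libraries 307 genes were higher in Type D (2.18 percent) and 324 lower (2.3 percent) by the same limma rule. Of the 248 genes higher in Restored, 139 were also called higher in Control, which is 56 percent of the Restored list and 45.3 percent of the Control list. Of the 242 lower, 164 were also called lower in Control, 67.8 percent of the Restored list and 50.6 percent of the Control list. Control and Restored libraries come from the same lines, so the lists are not independent. Of the 109 genes called higher in Restored alone, 105 had the same sign in Control and 65 differed there by at least 1 log2, and of the 78 called lower in Restored alone these were 73 and 50. A missing Control call therefore does not show that a difference arose after restoration. Leaving out a line moved the Control total from 631 to 70 without 4711-1, 130 without 4716-11 and 239 without 4716-14.

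Whether a difference changed was tested as the Type D response to restoration minus the Type V response, with each line compared with itself. It was called for 5 genes (0.0355 percent of those tested) and reached an unadjusted p under 0.05 in 2190 of the 14104 (limma). With few lines a type, a gene without this call is not shown to respond alike in both types. Gm15987, a predicted gene, was at 0.606, 0.354 and 0.495 TPM in Type D and 0.147, 0.657 and 0.306 TPM in Type V in Control and at 0.307, 0.295 and 0.413 TPM in Type D and 14.1, 32.4 and 33.6 TPM in Type V in Restored, with all 3 Type V lines above their Control values, a difference in response of -4.41 ± 0.30 log2 (SE, limma adjusted p 0.0204). Mgp, matrix Gla protein, was at 0, 0.312 and 0 TPM in Type D and 292, 210 and 253 TPM in Type V in Control and at 0, 0.26 and 0.363 TPM in Type D and 9.95, 20.2 and 13.1 TPM in Type V in Restored. In Type V it was lower in every line after restoration, while the Type D values did not exceed 0.363 TPM, a difference in response of 4.21 ± 0.37 log2 (SE, limma adjusted p 0.0412). Cyp4b1, a cytochrome P450, was at 29.2, 15 and 15.3 TPM in Type D and 7.51, 15.7 and 8.32 TPM in Type V in Control and at 1.04, 0.418 and 0.936 TPM in Type D and 4.22, 13.1 and 4.31 TPM in Type V in Restored, a difference in response of -2.90 ± 0.28 log2 (SE, limma adjusted p 0.0452). Csn3, which encodes kappa casein, was listed at 0 in all Type V libraries and stood at 1.31, 0 and 3.69 TPM in Type D in Control and 10.3, 3.29 and 23.2 TPM in Restored. Capn6, a calpain-like protein, was listed at 0 in Type D in Restored, while in Type V it was at 14.4, 7.67 and 185 TPM in Control and 0.274, 0.269 and 18.5 TPM in Restored. Leaving out single lines gave 0 to 14 calls: 14 without 4716-11, 1 without 4711-11 and 0 without any one of the other 4 lines.

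**Figure D5:**
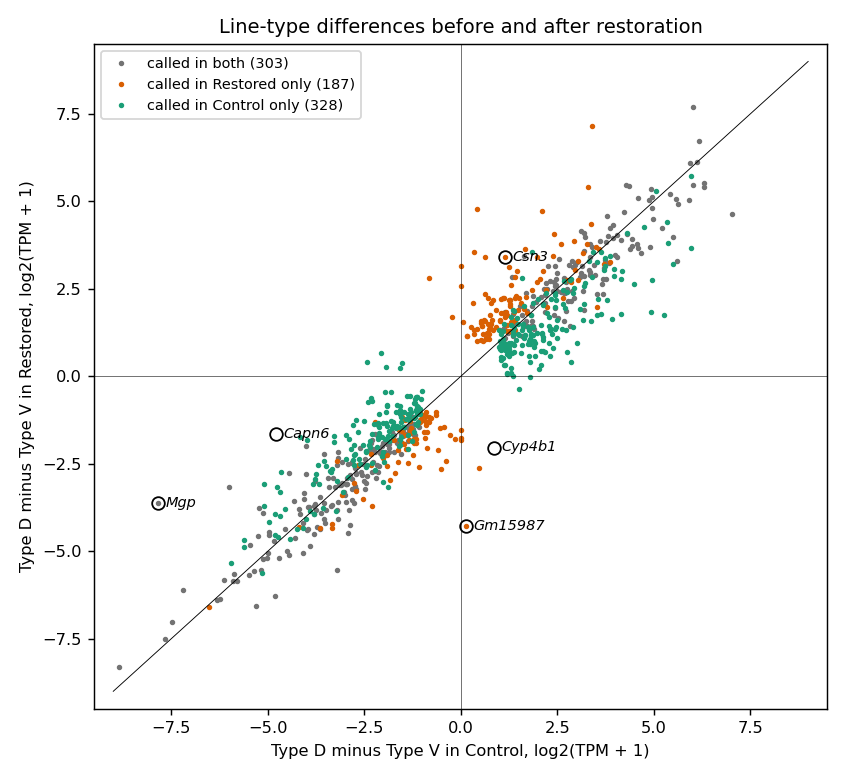
Type D minus Type V difference in Restored (vertical axis) against that in Control (horizontal axis), log2(TPM + 1), for genes called in either state; the line marks equal differences. Of the called genes, 303 were called in both states, 187 in Restored only and 328 in Control only, and the 5 genes called for a difference in response are circled.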

How the data were processed

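Gene levels were read from the deposited table of TPM values, made by the authors from stranded mRNA libraries and scaled to the same total in each library. The methods name Kallisto or HISAT2 with mm10 (GRCm39), and which of them, and which annotation, gave this table is not given in the sources used here. Genes with at least 1 TPM in at least 3 of the 24 libraries were kept (14104 of 25239). The levels, as log2(TPM + 1), were fitted for the 6 Restored libraries with limma 3.58.1 in R 4.3.3 (eBayes with trend, two-sided), and a gene was called at a Benjamini-Hochberg adjusted p under 0.05 over all genes tested and a difference of at least 1 log2. Control libraries were fitted alike. The response was fitted on the Control and Restored libraries with cell line as a block, since the labels tie both libraries to 1 line. No exact test of 3 lines against 3 can go below a p of 0.1, so single values were not tested. Lists were not tested as sets and older gene symbols were matched to the table. Named genes were the 10 largest calls and the 5 most abundant calls in each direction, up to 4 calls in each direction from each list, a set named whatever its result, and the calls in response; other genes are marked in the text. The members, lists and rules were chosen with earlier results of these data known. Depth is unknown, because TPM keeps no read counts. A few genes of the lists are not reported here. The fit was tested on simulated data. Alternatives were other pseudocounts, filters, scalings, variance trends, sets of libraries, blocks and leaving out each line.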

Additional observations from a re-analysis of the deposited data

Results flagged for a closer look

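In 5 genes the response to restoration differed between the types by limma's test of that difference, with each line as its own block. The difference in response, Type D minus Type V, was -4.41 ± 0.30 log2 (SE, limma adjusted p 0.0204) for Gm15987, 4.21 ± 0.37 log2 (SE, limma adjusted p 0.0412) for Mgp and -2.90 ± 0.28 log2 (SE, limma adjusted p 0.0452) for Cyp4b1. For Csn3, listed at 0 in all Type V libraries, it was 2.25 ± 0.21 log2 (SE, limma adjusted p 0.0412), and for Capn6, listed at 0 in Type D after restoration, 3.12 ± 0.27 log2 (SE, limma adjusted p 0.0412); both values depend on the pseudocount. Gm15987 kept its call without 4716-11 and without 4711-11 and Cyp4b1 without 4716-11, and the other calls were lost whichever single line was left out. With p53 restored, Mgp was lower in Type D, at -3.63 ± 0.34 log2 (SE, limma adjusted p 0.00808), and so was Gm15987, at -4.28 ± 0.39 log2 (SE, limma adjusted p 0.00796).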

How the results depend on the processing

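None of the 82 called named genes changed direction in any of the 16 settings tried. With 1 line left out this was fixed in advance, since the types did not overlap in any called gene. The Restored total of 490 became 129 with no filter on low values, 1331 with all 24 libraries, 1073 with 12 libraries and 205 with the line name prefix as covariate, and 14 to 705 with 1 line left out. The Control total of 631 became 221, 1246, 1033 and 243 in the same order, and 70 to 748 with 1 line left out. These fits on 24 and on 12 libraries counted libraries of the same line as independent. Such libraries are correlated (0.736 within a line over the 24 libraries), so these larger totals are not a gain in evidence. With all 24 libraries and cell line as a random replicate block the totals were 1589 and 1587. Without the replicate block the response total of 5 became 2, and it became 1 with a pseudocount of 0.1, 2 with no filter, 9 with quantile normalization, 11 without the variance trend and 0 to 14 with 1 line left out. Quantile normalization moved the Restored split to 322 higher and 252 lower, and a pseudocount of 0.1 to 222 and 267. Of 82 called named genes, 51 kept the call with the prefix covariate and 30 with no filter, where more genes were tested. Each type has 3 lines, 1 library each, and TPM gives no depth.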
